A study of Homo sapiens with 8 samples.

Results

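The 10 genes described here are ATF4 and 9 genes of the integrated stress response that it leads: DDIT3, TRIB3, ASNS, CHAC1, PPP1R15A, SESN2, PSAT1, PHGDH and SLC7A11. They were chosen by Ensembl ID as known members of this response, and make up 10 of the 60666 gene rows in the count table. The measurements are RNA-seq libraries of RNA recovered with biotinylated microRNA duplexes 48 h after transfection into 786-0 cells, an established human line from a clear cell renal carcinoma. Of the 8 libraries, 3 came from pulldowns with a control microRNA duplex (control), 2 from pulldowns with miR-2355-5p (miR-2355) and 3 from pulldowns with miR-1271-5p (miR-1271). All groups share the line, the culture medium and the extraction, and the duplex is the labelled difference between them. The question put by the study is which RNAs are bound by each microRNA, with enrichment over the control as the sign of a candidate target. No library of RNA before the pulldown was analysed here, so a changed amount of an RNA in the cells and a changed recovery with the duplex cannot be told apart, and neither can fewer cells and less RNA per cell.

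The integrated stress response starts when kinases that sense amino acid shortage, misfolded protein in the endoplasmic reticulum, viral RNA or lack of haem phosphorylate the translation factor eIF2α. General translation then falls, while the mRNA of ATF4, a bZIP transcription factor, is translated more because of short upstream reading frames. ATF4 switches on genes for amino acid synthesis and uptake and for redox balance, together with genes that end the response or lead to cell death, and cancer cells use the same program to keep up their supply of serine, asparagine and cystine.

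A microRNA recognises its targets mainly through its seed, bases 2 to 8, and so the guide strands named by the study are shown with the seed in capitals, as RefSeq gives them. Both lie in GRCh38.p14, miR-2355-5p at chr2:207110043-207110063 on the minus strand and miR-1271-5p at chr5:176367960-176367981 on the plus strand. The third line is miR-96-5p (chr7:129774739-129774761, minus strand), the only other mature microRNA in the RefSeq table with the seed of miR-1271-5p.
miR-2355-5p: aUCCCCAGauacaauggacaa
miR-1271-5p: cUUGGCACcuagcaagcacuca
miR-96-5p: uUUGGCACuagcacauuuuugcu
The seeds of miR-2355-5p and miR-1271-5p differ, and a site complementary to the whole seed reads CTGGGGA for the former and GTGCCAA for the latter in the DNA of a target. No other mature sequence in the table (0) shared the miR-2355-5p seed. The transcripts of the 10 genes were not searched for these sites here, so none of the differences reported next is tied to a site.

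The libraries held 4122875 to 22864693 counted reads, the fewest in control replicate 2, and 17351 genes passed the filter on low counts. Of the 10 genes, 9 passed it and PHGDH did not. Values are CPM, the usual depth-scaled read count, adjusted by TMM, a factor per library that assumes most genes do not change. Fold changes are on the log2 scale with approximate standard errors (SE) from edgeR's quasi-likelihood fit to all 8 libraries, and a gene was called higher or lower at a Benjamini-Hochberg adjusted p under 0.05 over all genes tested. Whether replicate libraries stem from separate cultures is not stated in the labels, so the p-values reflect only the spread seen among the 8 libraries, and that spread may be technical. The labelled kidney epithelial origin was not checked against marker genes, since the only names given for Ensembl IDs here are those of the 10 genes.

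Over the control, the genes that were called did not all move one way. With miR-2355, 2 of the 9 tested genes were lower than with the control (ATF4 and DDIT3), and none (0) was higher, against 17.5% of all genes lower and 12.3% higher. DESeq2 also gave 0 higher, and none of the genes with a positive fold change had an unadjusted edgeR p under 0.05 (0 of 2). With miR-1271, 2 of 9 were higher (TRIB3 and SESN2) and 2 lower (ATF4 and DDIT3), against 17.6% of all genes higher and 22.5% lower. Between the microRNAs, 2 of 9 were lower with miR-2355 (ATF4 and TRIB3), against 2.65% of all genes lower and 3.5% higher. The shares over the control are near those of all genes, so those counts by themselves are not a result about these genes. The count between the microRNAs includes ATF4, whose call was lost in 9 of the 16 alternatives. TRIB3 alone kept its call there in all 16, so that count is not a result about the genes as a set either. The 9 genes had a median log2 fold change of -0.14 with miR-2355, where all genes had -0.005, and of -0.05 with miR-1271, where all genes had 0.006. Between the microRNAs their median was -0.49 (miR-2355 minus miR-1271), where all genes had -0.006, and 8 of the 9 differences were negative, of which 2 passed. With that median, negative and positive values were about equally common among all genes. The genes tended to shift together within a library, so these 9 differences are not separate observations. The PSAT1 and PPP1R15A differences, both -0.03 in the reported fit, turned positive under several alternatives. With library totals in place of TMM both were positive (0.10 and 0.09). Without miR-2355 replicate 1 PSAT1 was at 0.21, and without miR-2355 replicate 2 PPP1R15A was at 0.07. The signs of the other genes stayed in every alternative. Counted by levels alone, both miR-2355 libraries lay below every control for 2 of 9 (27.8% of all genes) and above for 0 of 9 (24.9%), and the miR-1271 libraries lay below every control for 3 of 9 (26.8%) and above for 2 of 9 (23.1%). Both miR-2355 libraries lay below all miR-1271 libraries for 3 of 9 (20.5%) and above for 0 of 9 (21.1%). The sizes of single genes were more unequal than these medians show, from -1.50 to 0.19 with miR-2355 and from -0.87 to 1.93 with miR-1271.

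**Figure D1:**
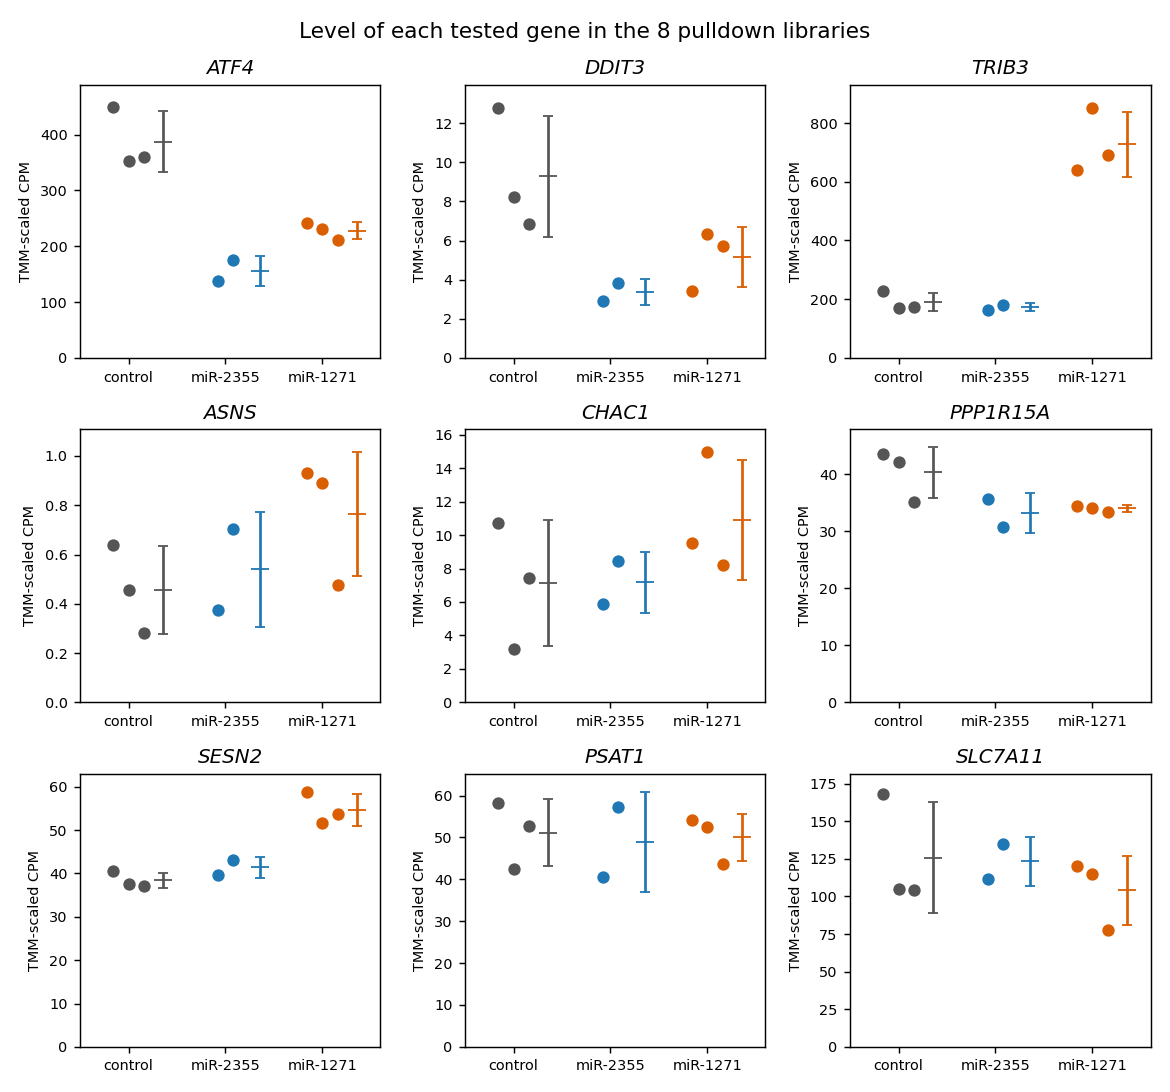
TMM-scaled CPM (y axis, linear and starting at 0) of the 9 tested genes in each library, by group on the x axis; points are libraries in order of replicate number, and the bar beside them is the mean ± SD (n = 3 control, 2 miR-2355 and 3 miR-1271 libraries). ATF4 is lower in all 5 microRNA libraries than in the controls, and TRIB3 lies between 641.1 and 850.9 CPM in the miR-1271 libraries and between 162.0 and 226.3 CPM in the other 5.

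ATF4 itself, the transcription factor of the response (ENSG00000128272, chr22:39520559-39522686), was recovered less with both microRNAs. It stood at 449.6, 352.2 and 359.3 CPM in control replicates 1 to 3, at 137.3 and 174.7 CPM in the miR-2355 libraries, and at 240.8, 231.1 and 211.8 CPM in the miR-1271 libraries. The 3 groups do not overlap: every control library lies above every miR-1271 library, and every miR-1271 library above both miR-2355 libraries. The level was 387 ± 54.3 CPM (SD, n = 3) with the control and 156 ± 26.5 CPM (SD, n = 2) with miR-2355, which is 2.48-fold lower (log2 fold change -1.31 ± 0.16 SE, edgeR adjusted p = 1.23e-05). With miR-1271 it was 228 ± 14.8 CPM (SD, n = 3), 1.70-fold lower than the control (-0.77 ± 0.14 SE, edgeR adjusted p = 0.000341). Among all genes tested the ATF4 fold change was at the 4.6 percentile with miR-2355 and at the 14.9 percentile with miR-1271. These rest on 1544 to 10584 ATF4 reads per library.

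The lower ATF4 level with miR-2355 than with miR-1271, a log2 difference of -0.55 ± 0.16 (SE), just passed the test (edgeR adjusted p = 0.0462). The size of the difference stayed between -0.73 and -0.37 under the alternatives, but 9 of the 16 alternatives lost the call, among them library totals in place of TMM (adjusted p = 0.109), equal depth (0.0774) and leaving out any 1 of 6 libraries: control replicate 3 (0.0637), miR-2355 replicate 1 (0.331) or 2 (0.0835), and miR-1271 replicate 1 (0.14), 2 (0.116) or 3 (0.0887). RefSeq lists 4 pseudogenes named after ATF4, and how reads that map to several places were counted is not given in the sources used here, so reads may be shared between them.

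DDIT3, also called CHOP, is a bZIP factor that ATF4 induces and that promotes cell death under lasting stress (ENSG00000175197, chr12:57516588-57520517). Its levels were 12.8, 8.21 and 6.85 CPM in control replicates 1 to 3, 2.88 and 3.85 CPM with miR-2355, and 3.41, 6.33 and 5.71 CPM with miR-1271. Both microRNA groups lay below all controls and overlapped each other. With miR-2355, DDIT3 was 2.83-fold lower than the control (log2 fold change -1.50 ± 0.30 SE, edgeR adjusted p = 0.00136). With miR-1271 it was 1.83-fold lower (-0.87 ± 0.26 SE, edgeR adjusted p = 0.0152), a call that was lost without control replicate 1 (-0.50, adjusted p = 0.145), the library with the highest level, without miR-1271 replicate 1 (-0.64, adjusted p = 0.081), the lowest of its group, and at equal depth (-0.75, adjusted p = 0.0965). The difference between the microRNAs, -0.63 ± 0.32 (SE), did not pass (edgeR adjusted p = 0.249). With 33 to 301 reads per library DDIT3 was counted far less precisely than ATF4, and in RefSeq its span overlaps 3 other genes, MARS1, MIR616 and the short LOC128125814, so reads there may not be its own.

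The DDIT3 reads were also set against the ATF4 reads of the same library. Counted within each library, which needs no scaling, there were 2.84, 2.33 and 1.91 DDIT3 reads per 100 ATF4 reads in the controls, 2.10 and 2.20 with miR-2355, and 1.42, 2.74 and 2.69 with miR-1271. The ranges of all 3 groups overlap.

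TRIB3 is a pseudokinase that ATF4 and DDIT3 induce and that acts back on them as an inhibitor (ENSG00000101255, chr20:380760-397559). It stood at 226.3, 170.2 and 174.2 CPM in control replicates 1 to 3, at 162.0 and 181.5 CPM with miR-2355, and at 641.1, 850.9 and 690.2 CPM with miR-1271. The lowest miR-1271 library is far above the highest of the other 5, and the control and miR-2355 libraries overlap. The rise with miR-1271 was 3.82-fold over the control (log2 fold change 1.93 ± 0.15 SE, edgeR adjusted p = 9.15e-08), at the 99.7 percentile of all genes tested. With miR-2355 the log2 fold change was -0.15 ± 0.17 (SE, edgeR adjusted p = 0.533). The microRNAs differed directly by -2.08 ± 0.18 (SE; miR-2355 minus miR-1271, edgeR adjusted p = 2.91e-06), or 4.24-fold.

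TRIB3 was among the better counted of the 10 genes, with 746 to 8711 reads per library, and RefSeq places no other gene within its span (0 overlapping). The rise with miR-1271 lay between 1.78 and 2.08 on the log2 scale under all 16 alternatives run, with adjusted p-values from 5.26e-38 to 3.57e-06. The number of TRIB3 reads per ATF4 read, again within each library, was 0.503, 0.483 and 0.485 in the controls, 1.18 and 1.04 with miR-2355, and 2.66, 3.68 and 3.26 with miR-1271. The 3 groups are separate in this ratio. ATF4 alone already separates them, though, so a gene with a steady level would shift in it too. Such a gene would be highest in it with miR-2355, where ATF4 was lowest, whereas the TRIB3 ratio was highest with miR-1271. SESN2, whose level with miR-2355 was not called different from the control, had 9, 10.7 and 10.3 reads per 100 ATF4 reads in the controls. With miR-2355 it had 28.9 and 24.7, and with miR-1271 24.4, 22.3 and 25.3. How many of all genes separate in such a ratio was not counted. With miR-2355 ATF4 fell and the TRIB3 levels overlapped the controls. With miR-1271 ATF4 fell and TRIB3 rose.

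**Figure D2:**
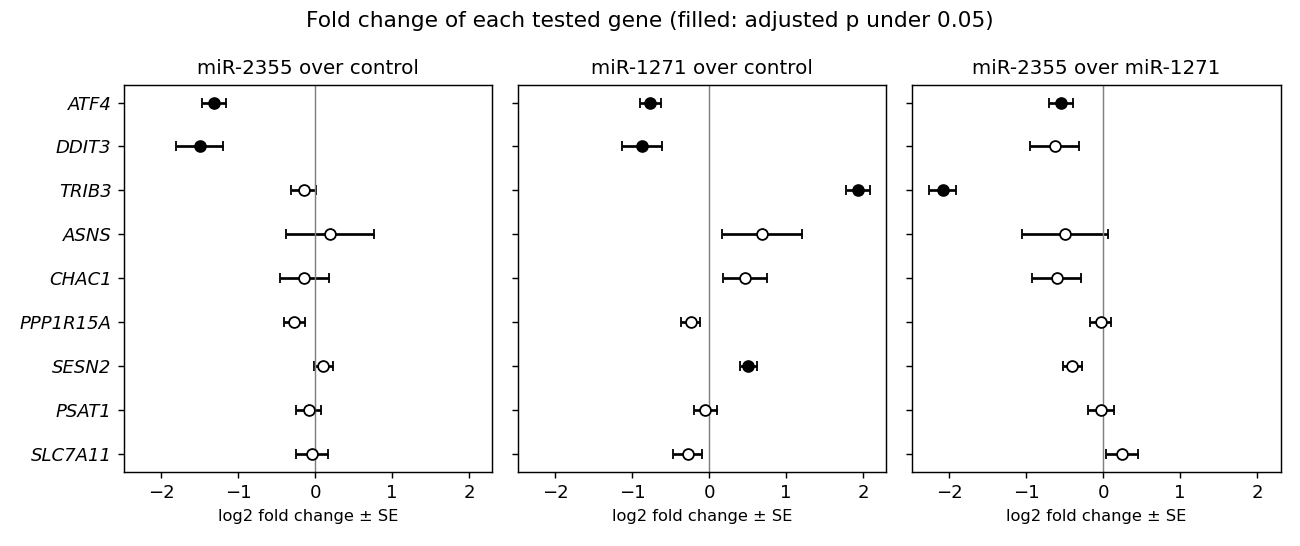
Log2 fold change ± SE (x axis) of the 9 tested genes in the 3 comparisons; filled points have an edgeR adjusted p under 0.05. ATF4 and DDIT3 lie below 0 over control in both pulldowns, and TRIB3 is at 1.93 with miR-1271 and at -0.15 with miR-2355.

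PPP1R15A, also called GADD34, is the stress-induced subunit that brings a phosphatase to eIF2α and so ends the response (ENSG00000087074, chr19:48872421-48876058). It was at 43.5, 42.2 and 35.2 CPM in control replicates 1 to 3, at 35.7 and 30.7 CPM with miR-2355, and at 34.4, 34.1 and 33.4 CPM with miR-1271. All 3 miR-1271 libraries are just below the lowest control, while one miR-2355 library overlaps the controls. Neither fold change passed: -0.27 ± 0.14 (SE) with miR-2355 (edgeR adjusted p = 0.145) and -0.24 ± 0.12 (SE) with miR-1271 (edgeR adjusted p = 0.133). Library totals in place of TMM gave a call with miR-1271 (-0.39, adjusted p = 0.0214), in a setting that also moved the median of all genes from 0.006 to -0.14.

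SESN2 is a stress-induced protein that senses leucine and restrains the growth kinase complex mTORC1 (ENSG00000130766, chr1:28259518-28282491). Its levels were 40.5, 37.6 and 37.1 CPM in control replicates 1 to 3, 39.6 and 43.2 CPM with miR-2355, and 58.9, 51.6 and 53.6 CPM with miR-1271. The miR-1271 libraries lie above the other 5, which overlap each other. SESN2 had the smallest SE of the tested genes, and a 1.42-fold rise with miR-1271 passed (log2 fold change 0.51 ± 0.11 SE, edgeR adjusted p = 0.00197), also under all 16 alternatives (0.36 to 0.60, adjusted p 0.000433 to 0.0242). With miR-2355 the value was 0.10 ± 0.12 (SE, edgeR adjusted p = 0.569). The direct difference of -0.40 ± 0.12 (SE) did not pass (edgeR adjusted p = 0.0657). It did in a fit of these 2 groups alone (0.0398) and without control replicate 1 (0.041), so a difference between the microRNAs in SESN2 is not settled by these libraries.

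CHAC1 breaks down glutathione and is induced by ATF4 and DDIT3 (ENSG00000128965, chr15:40953471-40956512). It was at 10.7, 3.19 and 7.46 CPM in control replicates 1 to 3, at 5.88 and 8.47 CPM with miR-2355, and at 9.52, 14.95 and 8.24 CPM with miR-1271. The controls alone span the miR-2355 values, and control replicate 2, the shallowest library, gave its value from 14 reads. The log2 fold changes were -0.14 ± 0.32 (SE) with miR-2355 (edgeR adjusted p = 0.785) and 0.46 ± 0.29 (SE) with miR-1271 (edgeR adjusted p = 0.216). The value with miR-1271 moved both ways with single libraries: it was 0.83 without control replicate 1, where it passed (adjusted p = 0.0371), and 0.96 at equal depth, where it passed (adjusted p = 0.0227), but 0.25 without control replicate 2 (adjusted p = 0.44) and 0.19 without miR-1271 replicate 2 (adjusted p = 0.677).

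The genes of amino acid supply showed no change that passed. PSAT1 makes phosphoserine on the way to serine (ENSG00000135069, chr9:78297125-78330093) and was at 58.3, 42.4 and 52.7 CPM in control replicates 1 to 3, at 40.5 and 57.4 CPM with miR-2355, and at 54.1, 52.5 and 43.7 CPM with miR-1271. The 3 groups overlap widely, with log2 fold changes of -0.08 ± 0.17 (SE) with miR-2355 and -0.05 ± 0.15 (SE) with miR-1271 (edgeR adjusted p = 0.749 and 0.814). RefSeq lists 4 pseudogenes named after it.

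SLC7A11 is the cystine importer xCT, which supplies glutathione synthesis and holds off ferroptosis (ENSG00000151012, chr4:138164097-138242349). It was at 168.3, 104.7 and 104.2 CPM in control replicates 1 to 3, at 111.9 and 135.0 CPM with miR-2355, and at 120.1, 114.6 and 77.9 CPM with miR-1271. Control replicate 1 stands above all the others, miR-1271 replicate 3 stands below them, and the groups overlap. The log2 fold changes were -0.04 ± 0.21 (SE) with miR-2355 (edgeR adjusted p = 0.921) and -0.28 ± 0.19 (SE) with miR-1271 (edgeR adjusted p = 0.248). The latter was -0.01 without control replicate 1 and -0.09 without miR-1271 replicate 3. The span of an antisense gene, SLC7A11-AS1, overlaps it in RefSeq, and the strand setting of the counting is not given in the sources used here.

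ASNS, which makes asparagine, and PHGDH, which opens serine synthesis, were hardly counted at all. ASNS (ENSG00000070669, chr7:97851677-97928441) had 15, 2 and 6 reads in control replicates 1 to 3, 7 and 11 with miR-2355, and 9, 9 and 6 with miR-1271. The levels of the 3 groups overlap, and with an SE of 0.57 and 0.52 its log2 fold changes of 0.19 and 0.69 (edgeR adjusted p = 0.837 and 0.315) could not show any but a large change at this depth. In RefSeq the ASNS span is shared with the lncRNA gene CZ1P-ASNS and 2 pseudogenes, and 5 further pseudogenes carry its name. Whether reads were lost to these rows was not tested.

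PHGDH (ENSG00000092621, chr1:119711934-119744215) had 1 read in control replicate 3, 1 in miR-2355 replicate 2 and 0 in each of the other 6 libraries. In the miR-1271 group 0 of 34437631 reads allows a share of up to 0.0871 CPM, unscaled (3 reads over the group's total), a limit that covers counting error only. It was not tested, and no fold is given. PSAT1, the next enzyme of the same route, was counted in every library with 186 to 1372 reads.

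**Figure D3:**
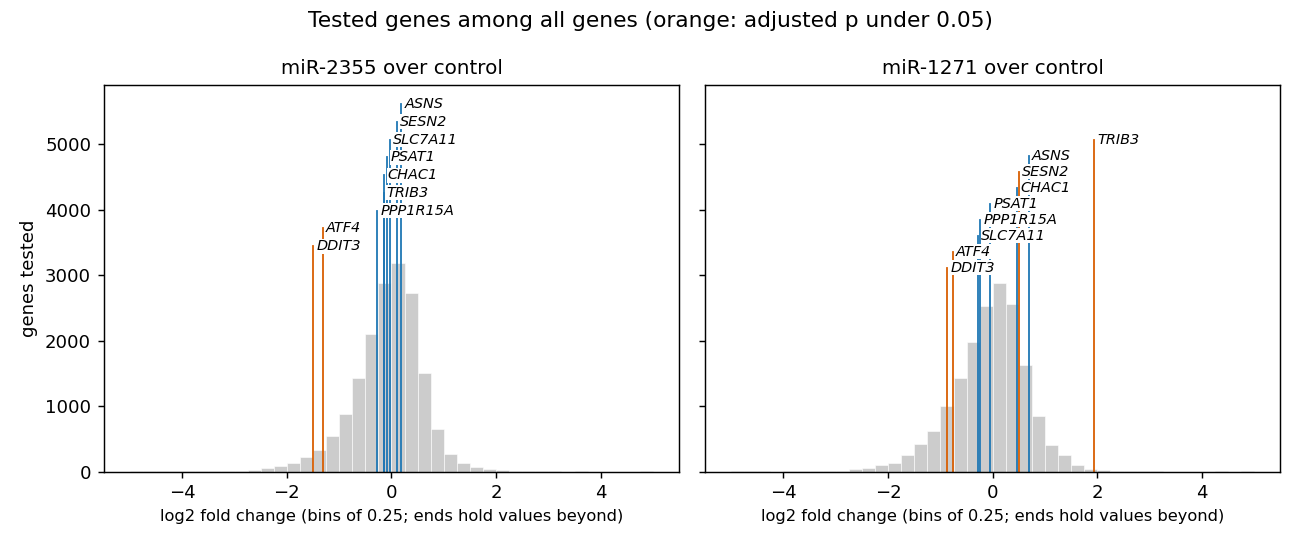
Number of all 17351 tested genes by log2 fold change over control (grey bars, in bins), with the 9 genes as vertical lines whose heights carry no value (orange, edgeR adjusted p under 0.05). With miR-2355, ATF4 and DDIT3 lie in the lower tail at -1.31 and -1.50 and the other 7 near the centre; with miR-1271, TRIB3 lies in the upper tail at 1.93.

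Within groups the genes tended to shift together from library to library, more plainly in the control and miR-2355 groups than with miR-1271. Control replicate 1 was the highest of the 3 controls for 9 of 9 tested genes, whereas it was the highest for 33.8% of all genes. The median deviation from the group mean in that library was 0.26 on the log2 CPM scale for the 9 genes and -0.005 for all genes. In the miR-2355 group, replicate 2 was the higher library for 8 of 9, against 50.5% of all genes, with PPP1R15A the exception. Among the miR-1271 libraries, replicate 3 was the highest for none (0 of 9), against 34.8% of all genes. Replicate 1 was the highest for 6 of 9 (30.6% of all genes) and replicate 2 for 3 of 9 (34.7%). In miR-1271 replicate 1, DDIT3, TRIB3 and CHAC1 lay below the group mean (-0.53, -0.17 and -0.15) and the other tested genes above it. This pattern was seen in the values and then counted, it has no test, and the genes of one library share its RNA and its scaling. It bears on the comparisons because the higher controls raise the reference level: without control replicate 1, the log2 fold changes of ATF4 and DDIT3 were -1.19 and -1.13 with miR-2355, and -0.65 and -0.50 with miR-1271, of which the last did not pass.

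**Figure D4:**
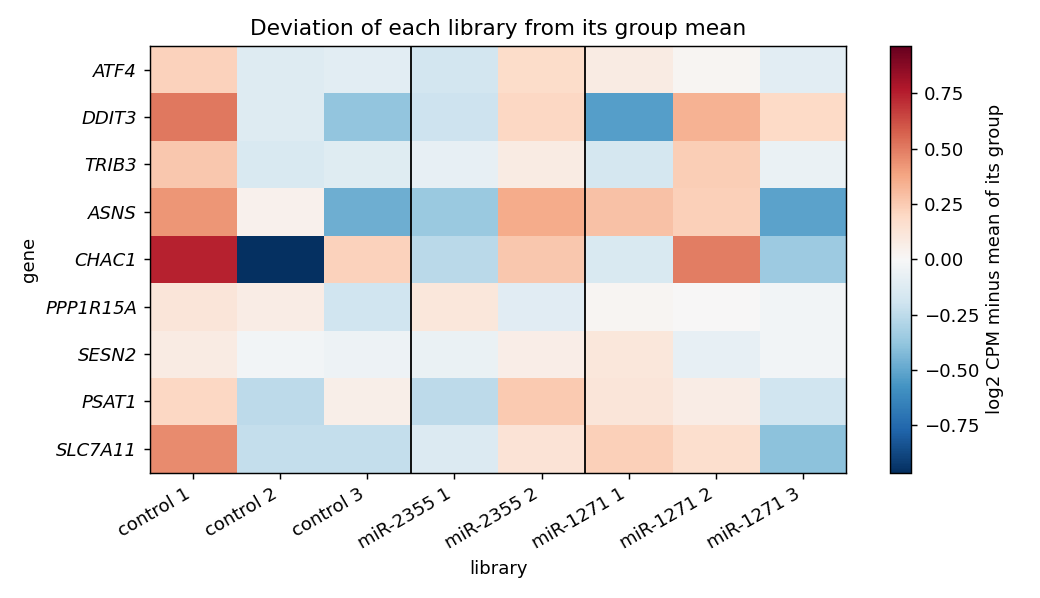
Log2 CPM of each tested gene (rows) in each library (columns) minus the mean of its group; red is above and blue below the group mean, and black lines part the groups. The column of control replicate 1 is red in all 9 rows, and CHAC1 has the widest spread among the controls.

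Across the 8 libraries the pattern of ATF4 was most like that of DDIT3 among the other tested genes (Pearson r of log2 CPM 0.89), followed by PPP1R15A (0.72), and lower for TRIB3 (-0.13) and SESN2 (-0.31). TRIB3 and SESN2 were the pair most alike (0.92). As deviations from the group means the order was another. ATF4 then correlated at 0.90 with PSAT1, 0.88 with SLC7A11, 0.85 with the sparsely counted ASNS and 0.76 with SESN2. Lower values followed for CHAC1 (0.695), TRIB3 (0.65), DDIT3 (0.48) and PPP1R15A (0.03). TRIB3 correlated with SESN2 at 0.04. Of 13682 genes with a mean log2 CPM of at least 1, ENSG00000204272 (r = 0.991) and ENSG00000250321 (0.989) were nearest to ATF4. DDIT3 was at the 95.3 percentile and PPP1R15A at the 82 percentile. These values describe the libraries: the points share RNA and scaling, and the values over all 8 mix differences between groups with shifts shared by the genes of one library. The values within groups rest on few free points, since the 2 miR-2355 deviations of a gene are equal and opposite. How many of all genes correlate with ATF4 as closely within groups was not counted.

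Promoters were searched for the C/EBP-ATF response element (CARE), through which ATF4 acts, as TGATGNAA on either strand, in RefSeq windows of 250 bases before to 50 bases after a start. Windows were held for 9 of the 10 genes (14 windows, GRCh38.p14), and SLC7A11 was not searched. A match was found for 2 of these 9, ASNS and CHAC1, and in 4.46% of all 27305 genes with a window. The stretches are shown for orientation, with the match in capitals and read along the gene, since ASNS and CHAC1 are the genes with a match among the 9 searched.
ASNS: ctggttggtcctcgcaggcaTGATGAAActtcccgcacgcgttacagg
CHAC1: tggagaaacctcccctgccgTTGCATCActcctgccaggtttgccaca
The first lies at chr7:97872449-97872496 on the minus strand, its match starting 68 bases before the start, and the second at chr15:40953242-40953289 on the plus strand, its match starting 209 bases before the start and reading on the opposite strand. Neither gene passed the test in any of the 3 comparisons. The ER stress response element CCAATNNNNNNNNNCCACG matched in none of the member windows (0 of 14), and in 0.0769% of all 35116 windows. ATF4, DDIT3, TRIB3 and SESN2, the genes that were called, had no match to either motif in these windows, which says only that these letters are not there. The TRIB3 windows (chr20:381045-381392) lie wholly inside the span of the gene, so no bases before its first base at chr20:380760 were searched.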

How the data were processed

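The deposited table holds raw read counts per Ensembl gene ID. Per the submitters' processing notes, BWA and featureCounts were used (versions not stated) with the builds hg38 and GRCh38; the gene annotation and the handling of strand and multi-mapping reads are not stated there. BWA is not splice-aware, so reads over exon junctions may be missing from every library. Counts were filtered with filterByExpr (99.78% to 99.82% of reads kept), scaled by TMM and fitted with edgeR 4.0.16 in R 4.3.3, with 1 mean per group and no block. DESeq2 1.42.0 was an alternative. The SE is the log2 fold change over the root of its F statistic. The procedure was tested on simulated data. Named genes were the 10 members, the 2 nearest to ATF4, and pathway genes from 9 lists (76 symbols). These lists gave no value: 0 rows of the gene table carry an Ensembl ID, so no symbol could be linked to a count row. Nor could the markers of cell types. Members, lists and tests were chosen with earlier results of these data known. Replicates differed beyond counting noise (chi-square per degree of freedom 6.21 to 21.2). Alternatives covered scaling, filter, tool, samples fitted, replicate block, depth and single libraries.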

Additional observations from a re-analysis of the deposited data

Results flagged for a closer look

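The effects of the 2 microRNAs over the control differed by the direct test for TRIB3 and ATF4. For TRIB3 the difference (miR-2355 minus miR-1271) was -2.08 on the log2 scale (edgeR adjusted p = 2.91e-06), with both miR-2355 libraries below all 3 miR-1271 libraries. For ATF4 it was -0.55 (edgeR adjusted p = 0.0462, and 0.0109 to 0.331 over its 16 alternatives), with the same order of libraries. Non-overlap in this direction held for 20.5% of all genes.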

How the results depend on the processing

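Over 16 alternatives, 411 of 428 values of single genes kept their status as called or not called, and 0 called values changed direction. Most of these values were of results not called in the reported fit, which had no call to lose and could change sign. Of the rest, 12 lost and 5 gained a call. The lost calls were those of ATF4 between the microRNAs (9) and of DDIT3 with miR-1271 (3). The number of genes lower with miR-2355 than with miR-1271, 2 by the reported fit, was 1 with library totals alone, 1 with the replicate block and 1 at equal depth, and 1 to 3 without single libraries (3 without control replicate 1, SESN2 included); TRIB3 stayed called throughout and ATF4 did not (with the replicate block, adjusted p = 0.0815). The number lower with miR-1271 than with the control, also 2, was 1 at equal depth and 1 to 2 without single libraries, DDIT3 being the gene lost, and 3 with library totals alone, PPP1R15A being gained. The number higher with miR-1271 rose from 2 to 3 at equal depth and without control replicate 1, with CHAC1 gained. Equal depth was chosen after the data were seen. Replicate numbers did not pair the libraries: deviations of same-numbered libraries correlated at -0.166 to 0.045. The block left 320 genes of all higher and 217 lower with miR-2355 than with miR-1271, against 608 and 459. Scaling set the split of calls over all genes: higher and lower genes numbered 2127 and 3044 with miR-2355 (2836 and 2615 with upper-quartile factors), 3062 and 3910 with miR-1271 (4003 and 3328; 1896 and 4887 with library totals), and 1252 and 261 in the direct comparison with library totals, which moved its median from -0.006 to 0.119. Leaving out miR-2355 replicate 1 cut the calls over the control in its group to 760 higher and 1569 lower genes. In the direct comparison, calls over all genes (608 higher and 459 lower) ran from 154 and 70 without miR-2355 replicate 2 to 915 and 785 without control replicate 1. ASNS and PHGDH are limited by their reads. The cause of these shifts was not tested.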
